A study of Mus musculus with 9 samples.

Results

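Skeletal muscle RNA was found at very different levels in 9 mouse tumours of 1 experiment, and the tumours are described here in 2 classes set by the muscle gene Acta1. The tumours were chosen by their measured Acta1 level, and one was put in the higher class when its Acta1 count divided by its column total reached 20 CPM (reads of the gene per M, or mega, reads counted). Of the 9 tumours, 5 were in the higher class (isotype tumour 3, anti-PDL1 tumours 1, 2 and 3, and BTZ+anti-PDL1 tumour 1) and 4 in the lower class (isotype tumours 1 and 2, BTZ+anti-PDL1 tumours 2 and 3). LLC cells (Lewis lung carcinoma, a mouse lung cancer line) had been grown under the skin of the right flank of wild-type male C57BL/6 mice. The mice were randomised when tumours were near 100 mm3. The 3 groups of 3 received an isotype control antibody at 10 mg/kg, an anti-PDL1 antibody at 10 mg/kg, or the anti-PDL1 antibody together with BTZ (bortezomib, a proteasome inhibitor) at 0.5 mg/kg, all into the peritoneum. All groups thus carried the same tumour line in the same strain and received an antibody, and no group received BTZ alone. The labels call the samples subcutaneous tumours and do not say how a tumour was cut from its surroundings, so the place of the muscle was not measured.

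The classes are not the study's groups. They were made from a gene measured in the same libraries, and they overlap with treatment, since all 3 anti-PDL1 tumours are in the higher class. Both classes occur only within the isotype group (tumour 3 against 1 and 2) and the BTZ+anti-PDL1 group (tumour 1 against 2 and 3). Every log2 difference between the classes given below, unless another setting is named, comes from a fit that holds treatment constant and therefore rests on those 6 tumours, with 1 higher-class tumour in each group. Fits with Acta1 as a continuous term also use its range within the anti-PDL1 group. Within the anti-PDL1 group, class and treatment cannot be told apart. Total counts were between 18.52 M and 21.51 M (M, mega), so depth differed little between the tumours.

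Skeletal muscle fibres are long fused cells packed with sarcomeres, in which actin and myosin filaments slide past each other. Calcium released from the sarcoplasmic reticulum starts each contraction, and creatine kinase and glycogen breakdown supply the energy. Fibres come in fast and slow types that use different myosin heavy chains. In mice a thin sheet of skeletal muscle, the panniculus carnosus, lies in the skin of the flank next to fat and fascia, and the muscles of the body wall lie beneath it.

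The 250 bases before the start of the 3 marker genes are shown first (RefSeq, GRCm38.p6, written along the gene's strand). Capitals mark matches to 4 motifs. CAGCTG is the E-box that myogenic factors bind. The second motif is the core promoter element known as a box for the TATA-binding protein, with the letters TATAAA. The MEF2 and CArG motifs are bound by MEF2 proteins and by serum response factor. In Myh4, 1 of the TATAAA matches lies on the other strand inside the MEF2 match. Acta1 encodes skeletal alpha-actin, Ckm the muscle creatine kinase and Myh4 the fastest myosin heavy chain. The stretches lie at chr8:123894776-123895025 (minus strand), chr7:19410844-19411093 (plus strand) and chr11:67237562-67237811 (plus strand).
Acta1: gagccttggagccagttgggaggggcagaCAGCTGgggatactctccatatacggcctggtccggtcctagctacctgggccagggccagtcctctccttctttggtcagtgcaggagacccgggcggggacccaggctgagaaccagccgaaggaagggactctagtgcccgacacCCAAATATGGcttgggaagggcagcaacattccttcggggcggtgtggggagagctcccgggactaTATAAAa
Ckm: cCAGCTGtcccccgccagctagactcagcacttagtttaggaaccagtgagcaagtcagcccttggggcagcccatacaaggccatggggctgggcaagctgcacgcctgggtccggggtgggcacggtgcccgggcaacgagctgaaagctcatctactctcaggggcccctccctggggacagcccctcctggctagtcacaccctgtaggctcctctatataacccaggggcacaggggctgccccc
Myh4: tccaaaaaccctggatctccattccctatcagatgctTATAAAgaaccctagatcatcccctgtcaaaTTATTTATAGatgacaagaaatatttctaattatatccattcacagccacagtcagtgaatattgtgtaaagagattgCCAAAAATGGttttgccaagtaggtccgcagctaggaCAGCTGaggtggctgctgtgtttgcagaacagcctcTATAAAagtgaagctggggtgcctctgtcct
All 3 stretches held CAGCTG, and those of Acta1 and Myh4 also held TATAAA and CArG. Both strands were searched. CAGCTG was present in 40.8% of the 98 muscle-list promoters with an entry and in 12.8% of all 27025 promoters of this length. The looser E-box CANNTG, of which CAGCTG is a form, was in 82.7% and 66.0%, TATAAA in 17 of the 98 and 3504 of all, MEF2 in 15.3% and 3.01%, and CArG in 7.14% and 1.4%. A match describes letters in this window and not a bound site.

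Acta1 spanned a 3290-fold range. By the measure that set the classes, it stood at 685 CPM in isotype tumour 3, 352 in anti-PDL1 tumour 1, 212 in BTZ+anti-PDL1 tumour 1, 49.5 in anti-PDL1 tumour 3 and 29.6 in anti-PDL1 tumour 2. In the lower class it stood at 4.37 in BTZ+anti-PDL1 tumour 2, 0.835 in BTZ+anti-PDL1 tumour 3, 0.668 in isotype tumour 2 and 0.208 in isotype tumour 1. The last of these was 4 reads. The tumours just inside and just outside the threshold, at 29.6 and 4.37, were 6.77-fold apart. No tumour was at 0. All CPM values after this are scaled by TMM, a correction for library composition, and are given in the order just used, the 5 tumours of the higher class first and the 4 of the lower class second.

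The other 2 markers followed the same order at the top. Ckm was at 306, 93.4, 73.5, 18.4 and 10.4 CPM in the higher class and at 0.908, 0, 0.247 and 0 in the lower. Myh4 was at 962, 240, 212, 76.6 and 35.4 CPM, and at 2.3, 0, 0.395 and 0. For both genes BTZ+anti-PDL1 tumour 3 and isotype tumour 1 had no read at all. The classes do not overlap for any of the 3 markers, and these values describe the choice of classes and test nothing.

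**Figure D1:**
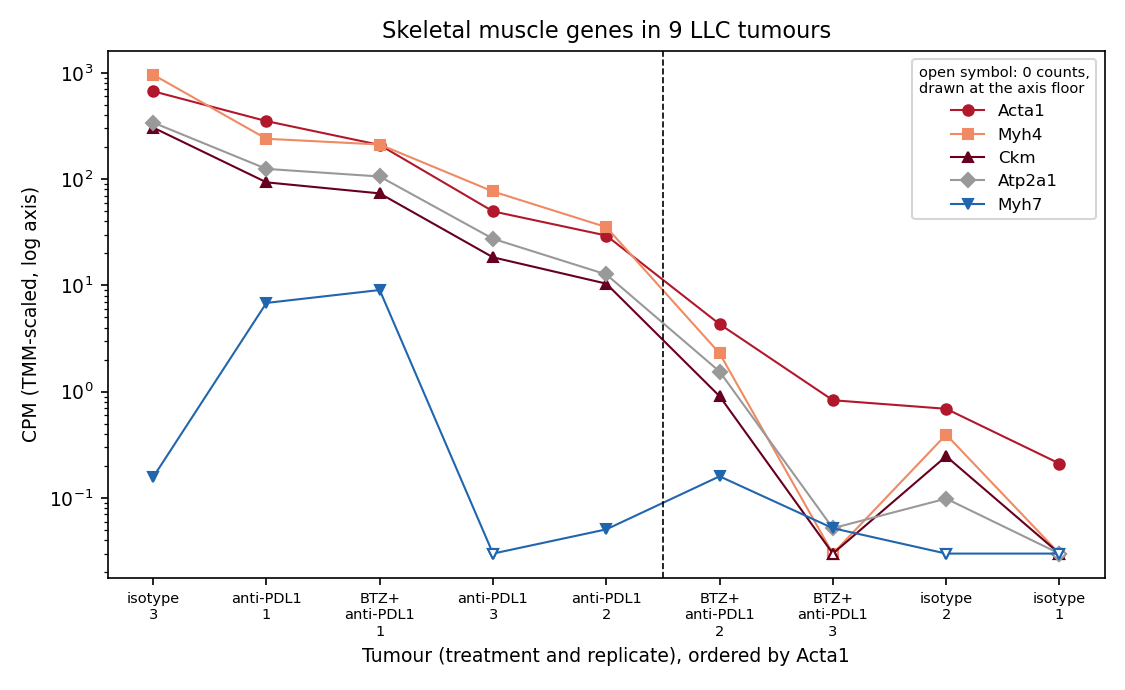
CPM (log axis) of the skeletal muscle genes Acta1, Myh4, Ckm, Atp2a1 and Myh7 in each of the 9 tumours, ordered by Acta1, with the broken line between the classes. Acta1 falls from 672 to 0.211 CPM, whereas Myh7 is high only in anti-PDL1 tumour 1 (6.85) and BTZ+anti-PDL1 tumour 1 (9.06).

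Of 131 symbols in 5 muscle lists, 114 passed the filter on low counts, and many passed through the higher class alone. For 55 of the 131, all 5 tumours of the higher class stood above all 4 others, beside a share of 1.59% among the 14806 genes tested. For 99 of the 114 tested, the higher-class tumour stood above both of its fellows in the isotype group and also in the BTZ+anti-PDL1 group (15.2% of genes tested, beside 13.1% in the opposite direction). As the lists are muscle lists and the classes were set by a muscle gene, nothing is read from these counts. Isotype tumour 3 held the highest value for 84 of the 114. The summed CPM of all 131 symbols was 5920, 3110, 2700, 1460 and 1430 in the higher class and 1100, 1220, 1320 and 1070 in the lower, where genes that other cells also use (Flnc, Asph, Gys1) make up most of the sum.

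Contraction genes showed the widest range. Atp2a1, the calcium pump of fast fibres, was at 341, 125, 106, 27.5 and 12.7 CPM and at 1.55, 0.052, 0.0987 and 0 in the lower class. Tnnt3, fast troponin T, was at 223, 74.3, 71.2, 11.9 and 6.84 CPM against 2.67, 0.728, 1.68 and 1.05. In the scaffold list Ttn (titin) was at 197, 68.7, 55.4, 18.6 and 6.69 CPM against 1.34, 0.728, 0.789 and 0.368. Des (desmin, the intermediate filament of muscle) was at 161, 68.7, 66, 19.6 and 9.63 CPM against 6.46, 4.68, 5.53 and 3.63, so a background of desmin was present in every tumour. In the metabolic list Pygm, the muscle glycogen phosphorylase, was at 94.5, 27.9, 26.4, 7.87 and 3.55 CPM against 1.12, 1.51, 1.23 and 1.32. These 5 genes kept the order of Acta1 among the 5 tumours of the higher class. Other highly counted members did not separate the classes: Flnc (filamin C) was at 549, 512, 487, 506 and 548 CPM against 462, 501, 661 and 446. Asph, a hydroxylase gene that also encodes junctin, was at 297, 346, 303, 203 and 326 CPM against 207, 316, 217 and 199. Members of near-identical families (Acta1 with Actc1 and Acta2, and the clustered genes Myh1, Myh2 and Myh4) can share reads, so their split is uncertain.

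Genes of adult fibres were high where Acta1 was high, and genes of new fibres were at 0 or a few reads. Pax7 and Myf5, which mark satellite cells and myoblasts, and Chrng, the fetal acetylcholine receptor subunit, had 0 reads in all 9 tumours. Myod1 and Myog, the factors that start differentiation, reached 0.47 and 0.522 CPM at most, both in isotype tumour 3. Myh3 and Myh8, the embryonic and neonatal myosins, gave at most 4 reads (isotype tumour 3) and 9 reads (BTZ+anti-PDL1 tumour 1). Scn4a, the sodium channel of adult muscle, was at 13, 4.45, 2.1, 1.97 and 0.608 CPM in the higher class against 0.0534, 0.052, 0 and 0.0526. Mef2c, a muscle transcription factor that other cells also use, was at 20.8, 14.9, 15.6, 9.6 and 5.42 CPM against 5.18, 6.81, 5.18 and 4.26, and its classes overlap. Chrnb1 and Chrna1, other receptor subunits, reached 54.3 and 6.46 CPM and did not follow Acta1. Chrna1 was highest in BTZ+anti-PDL1 tumour 2, of the lower class.

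The shares of myosin heavy chains differed between tumours of the higher class, with Myh4 the largest share in each. On the length-corrected FPKM scale, Myh4 made up 91.9% of the summed level of 6 sarcomeric myosin heavy chains in isotype tumour 3, 74.3% in anti-PDL1 tumour 1, 79.1% in BTZ+anti-PDL1 tumour 1, 87.0% in anti-PDL1 tumour 3 and 93.2% in anti-PDL1 tumour 2. Myh7, the slow myosin, gave 137 reads in anti-PDL1 tumour 1 and 181 in BTZ+anti-PDL1 tumour 1, but 3 reads in isotype tumour 3, which had the most Myh4. Its share of the 6 chains was 1.42%, 2.27% and 0.01% in these tumours. Myl2, the slow regulatory light chain, gave 31 reads in each of anti-PDL1 tumour 1 and BTZ+anti-PDL1 tumour 1 and 0 in isotype tumour 3. Myl3, the slow essential light chain, gave 15, 13 and 0 reads in the same 3 tumours. Csrp3, a muscle LIM protein, was at 0.731 CPM in isotype tumour 3 against 3.15 and 3.71 CPM in anti-PDL1 tumour 1 and BTZ+anti-PDL1 tumour 1. These 4 genes were lower in isotype tumour 3 than in the other 2 tumours, and Myl2, Myl3 and Csrp3 were named after their values were seen. The slow and oxidative list as a whole was not lower there, with a summed level of 47.2 CPM against 39.2 in anti-PDL1 tumour 1 and 48.5 in BTZ+anti-PDL1 tumour 1. In it Mybpc1, myosin-binding protein C of the slow type, was at 34.6, 15, 16.9, 4.78 and 1.37 CPM against 0.214, 0.052, 0 and 0.0526. Intervals on such counts would cover counting error only, and 1 tumour of each kind gives no test.

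Genes outside the muscle lists were tested for a difference between the classes with edgeR's quasi-likelihood test. None of the 14806 genes, muscle genes included, passed a Benjamini-Hochberg adjusted p of 0.05 (0.00%), and 1484 had an unadjusted p under 0.05 (10.0%), 873 of them higher (5.90%) and 611 lower (4.13%) in the higher class. DESeq2 with the same model called 252 genes (1.70%), of which 176 were outside the muscle lists, 128 higher and 48 lower (1.38% and 0.324% of all genes were called in each direction). With the log2 Acta1 level as a continuous term in edgeR, 205 genes passed (1.38%), 117 of them outside the muscle lists, 104 higher and 13 lower (1.30% and 0.0878% of all genes). Leaving out single tumours gave 94 calls without anti-PDL1 tumour 1, 12 without anti-PDL1 tumour 2, 12 without BTZ+anti-PDL1 tumour 1, 6 without isotype tumour 3, 1 without isotype tumour 1 and 0 without any of the other 4. The words higher and lower below give the direction of the fitted difference and not a call. Over all genes tested the median log2 difference was 0.0038. In a bulk tumour, fewer cells of a type and less RNA per cell cannot be told apart.

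Of the genes of tendon and fascia, the collagen-rich tissue that wraps and anchors muscle, Thbs4, Smoc2 and Fmod were higher in the higher class. The tendon cell genes Tnmd and Mkx did not follow Acta1. Thbs4 (thrombospondin 4, found in tendon and in muscle) was at 10.3, 9.01, 17.3, 2.44 and 2.79 CPM in the higher class and at 2.56, 0.52, 0.395 and 0.0526 in the lower. Its highest value was in BTZ+anti-PDL1 tumour 1, and the classes meet at anti-PDL1 tumour 3 and BTZ+anti-PDL1 tumour 2. Its log2 difference was 4.30 ± 0.86 (SE), with an adjusted p of 0.192 by edgeR. Smoc2, a secreted matrix protein, was at 4.39, 3.7, 2.75, 1.03 and 1.77 CPM against 0.481, 0.312, 0.197 and 0.0526, with no overlap. Fmod, a collagen-binding proteoglycan of tendon, was at 1.57, 0.45, 1, 0.375 and 0.253 CPM against 0.214, 0.104, 0 and 0, also with no overlap. Smoc2 and Fmod passed the filter on low counts only through the higher class, so their difference is a description with no test. With Acta1 as a continuous term Thbs4 passed in edgeR, at adjusted p = 8.4e-05, and over all alternatives its adjusted p ran up to 0.948.

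Other connective tissue genes separated the classes less widely. Clec3b (tetranectin) was at 4.86, 3.9, 1.5, 1.22 and 2.58 CPM against 0.534, 1.2, 0.987 and 0.895. Col14a1, a collagen that coats collagen fibrils, was at 18, 36.9, 18, 27.1 and 33.3 CPM against 12.6, 11.1, 13.3 and 12.9. Neither overlaps between the classes, and the adjusted p was 0.353 and 0.246. Ogn, a small leucine-rich proteoglycan, overlaps, at 27.1, 9.51, 19.6, 10.8 and 16.4 CPM against 9.4, 12.9, 18.2 and 9.48. Of the 24 fascia and connective tissue genes tested, 18 were higher (50.7% of all genes were) and 6 lower. Their median log2 difference was 0.36 (0.25 without isotype tumour 1 and 0.65 without isotype tumour 2). In 3 of them (Smoc2, Clec3b and Col14a1) the classes do not overlap (1.59% of all genes). Smoc2 passed the filter on low counts only through the higher class, so nothing is read from these counts. Of 5 tendon genes tested, 4 were higher, with a median of 0.95 (2.72 without BTZ+anti-PDL1 tumour 1), and Tnmd and Mkx, which mark tendon cells, did not follow Acta1. Fmod is among the 5 and passed that filter only through the higher class, so nothing is read from this count or median. Tnmd stood at 0.575, 0.65, 0.601, 0.75 and 0.557 CPM against 0.748, 0.156, 0.789 and 0.211. The collagens of activated fibroblasts had a median near 0 (0.14 over 16 genes). Col1a1, the main fibrillar collagen chain, ran from 346 to 1350 CPM in the higher class and from 73.2 to 1110 in the lower.

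In none of the 21 fat genes tested did the Acta1 classes separate. Over all genes 1.59% separated with the higher class above, so nothing is read from this count. Adipoq (adiponectin, made by adipocytes) was at 7, 2.1, 1.4, 0.609 and 1.11 CPM against 0.481, 2.03, 0.0987 and 0.105. BTZ+anti-PDL1 tumour 3, with an Acta1 level of 0.832 CPM, thus held about as much Adipoq as anti-PDL1 tumour 1, with 352. Cfd (adipsin, a complement protease of fat) was at 58.1, 17.2, 7.56, 2.76 and 6.64 CPM against 1.6, 24.9, 0.444 and 0. Car3, a carbonic anhydrase of fat and slow muscle, was at 65.3, 37.3, 30.5, 3.37 and 5.47 CPM against 0.801, 15.1, 0.247 and 0. Gpd1, an enzyme of glycerol metabolism, was at 14.2, 3, 1.75, 1.59 and 1.37 CPM against 0.534, 1.98, 0.987 and 0.737 (log2 difference 2.58 ± 0.86, SE, adjusted p = 0.387), and the difference was 0.47 without isotype tumour 3 and 4.03 without BTZ+anti-PDL1 tumour 1. Car3 and Cfd were chosen after their values were seen. BTZ+anti-PDL1 tumour 3 was the highest of the lower class for all 4 genes, and all 4 overlap between the classes.

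All 21 adipocyte genes tested had a positive difference, against 50.7% of all genes, with a median of 2.44. In none did the classes separate, near the 1.59% of all genes that did so in this direction. In 3 of the 21 the higher-class tumour stood above both fellows in both groups, near the 15.2% of all genes. None passed in edgeR, by class or with Acta1 as a continuous term, and 5 passed in DESeq2 (1.70% of all genes). The median was 0.12 without isotype tumour 3, 1.53 and 1.47 without isotype tumours 1 and 2, and 6.01 without BTZ+anti-PDL1 tumour 1. The list score, the mean of log2(CPM + 0.5) less its mean over the 9 tumours, was 2.54 higher in isotype tumour 3 than in its 2 fellows, and 0.30 higher in BTZ+anti-PDL1 tumour 1 than in its own. Without isotype tumour 3 the difference turned sign for Cfd, at -0.81, and for the lipid enzyme Dgat2, at -0.01. Thrsp, a lipogenic gene, was at 2.93, 0.1, 0.3, 0.0469 and 0.507 CPM against 0, 0.416, 0 and 0. Thrsp and Adipoq are among the 21 and passed the filter on low counts only through the higher class. Nothing is therefore read from their differences, or from the counts and median over the 21 genes.

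**Figure D2:**
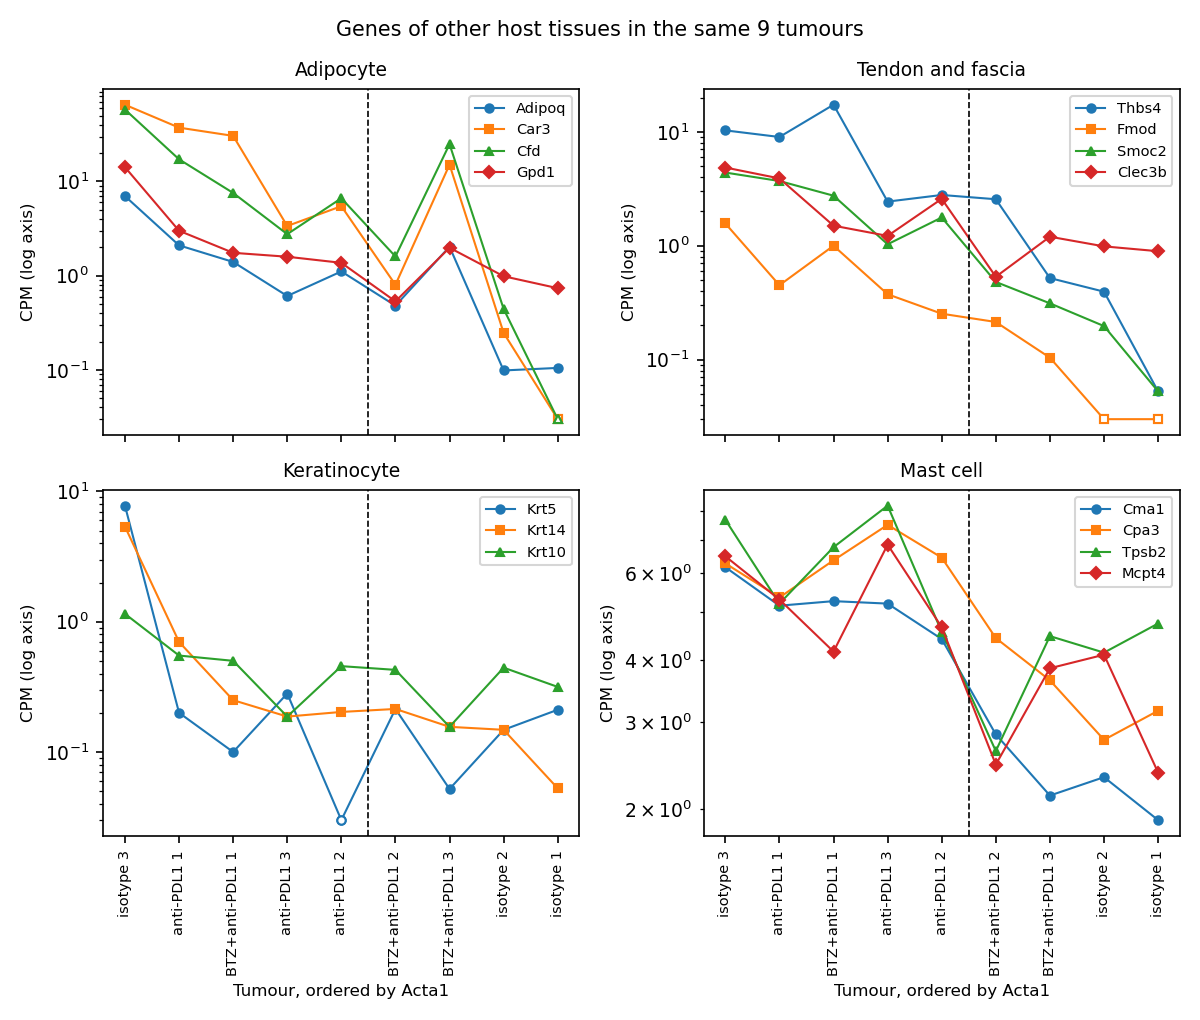
CPM (log axes) of genes of fat, tendon and fascia, epidermis and mast cells in the 9 tumours, ordered by Acta1, with open symbols for 0 counts and the broken line between the classes. Adipocyte genes are high again in BTZ+anti-PDL1 tumour 3 (Cfd 24.9 CPM), keratins stand out in isotype tumour 3 (Krt5 7.78 CPM), and Cma1 lies between 4.41 and 6.16 CPM in the higher class and between 1.9 and 2.83 in the lower.

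Skin surface genes marked a single tumour. Krt14, a keratin of the basal epidermis, was at 5.38, 0.7, 0.25, 0.187 and 0.203 CPM against 0.214, 0.156, 0.148 and 0.0526. Krt5, its partner keratin, gave 149 reads in isotype tumour 3 and 6 at most in any other tumour, and did not pass the filter on low counts. Krt10, of the upper epidermis, was at 1.15, 0.55, 0.501, 0.187 and 0.456 CPM against 0.427, 0.156, 0.444 and 0.316. Isotype tumour 3 therefore held muscle, fat and epidermal RNA together. Of 16 keratinocyte symbols 4 were tested, with a median difference of 0.65 (0.01 without anti-PDL1 tumour 1, 0.21 without isotype tumour 3 and 3.43 without BTZ+anti-PDL1 tumour 1). Krt14 and Krt10 are among the 4 and passed the filter on low counts only through the higher class, so nothing is read from this median. Among nerve genes, Scn7a, a sodium channel of Schwann cells and sensory nerve, was at 3.87, 4.65, 1.65, 2.62 and 3.04 CPM against 0.801, 0.78, 1.53 and 0.316, with no overlap (adjusted p = 0.352). The 9 nerve genes tested had a median of 0.12 (-0.05 without isotype tumour 3 and 0.31 without BTZ+anti-PDL1 tumour 1).

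Mast cell genes were higher in the Acta1-rich tumours. Mast cells are granule-filled immune cells that live in connective tissue and release proteases and histamine. Cma1, the mast cell chymase (chr14:55941453-55944661 in the deposited table, mm10), was at 6.16, 5.15, 5.26, 5.2 and 4.41 CPM against 2.83, 2.13, 2.32 and 1.9. Its means were 5.24 ± 0.62 (SD, n = 5) and 2.29 ± 0.40 (SD, n = 4), the classes do not overlap, and anti-PDL1 tumour 3, which held little Acta1, was at the level of the others. The log2 difference was 1.32 ± 0.22 (SE), with an adjusted p of 0.128 by edgeR, 0.00817 with Acta1 as a continuous term and 0.00148 by DESeq2. Over 20 alternatives the adjusted p ran from 0.00148 to 0.948, and the difference from 0.93 to 1.54.

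The other granule proteases went the same way. Cpa3, mast cell carboxypeptidase, was at 6.27, 5.35, 6.36, 7.5 and 6.44 CPM against 4.43, 3.64, 2.76 and 3.16 (log2 difference 0.87 ± 0.21, SE, adjusted p = 0.203; 0.48 at an Acta1 threshold of 100). Mcpt4, a connective tissue mast cell protease, was at 6.48, 5.3, 4.16, 6.84 and 4.66 CPM against 2.46, 3.85, 4.1 and 2.37. Tpsb2, a tryptase, overlaps, at 7.68, 5.2, 6.76, 8.2 and 4.56 CPM against 2.62, 4.47, 4.14 and 4.74. Of 8 mast cell genes tested 7 were higher, with a median of 0.86, 3 had classes that do not overlap, and 6 were higher within both groups. Over all genes these shares were 50.7%, 1.59% and 15.2%. Kit, the stem cell factor receptor that mast cells share with other cells, was the lower one, at 11.3, 10.1, 10.7, 11.9 and 12.6 CPM against 8.5, 11.2, 18.8 and 11.9. The summed level of the list was 33.3 to 42.6 CPM in the higher class and 22.3 to 33.9 in the lower.

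Genes of tissue-resident macrophages were higher within both groups that hold both classes. Ccl8, a chemokine of such macrophages, was at 64.1, 39.1, 52, 62.1 and 52.9 CPM against 19.2, 37.4, 15.9 and 8.53 (log2 difference 1.68 ± 0.46, SE, adjusted p = 0.311). The difference was 0.87 without isotype tumour 3 and 1.03 at an Acta1 threshold of 100. Gas6, a ligand for uptake of dying cells, was at 68, 45.3, 45.9, 45.8 and 59.5 CPM against 30.9, 43.8, 29.7 and 22.6 (adjusted p = 0.361). Both separate the classes, with anti-PDL1 tumour 1 and BTZ+anti-PDL1 tumour 3 close together at the border. Folr2, a folate receptor of resident macrophages, was at 35.8, 36.4, 43.6, 28.6 and 33.2 CPM against 36.1, 32.2, 19.2 and 21.4. It overlaps, with an adjusted p of 0.200 by edgeR, 0.0223 with Acta1 as a continuous term and up to 0.948 over the alternatives. Clec10a, a lectin of this cell type, was at 11, 4.1, 8.11, 7.78 and 7.04 CPM against 3.15, 4.06, 5.33 and 2 (adjusted p = 0.272). Mrc1, the mannose receptor CD206, chosen after its values were seen, was at 379, 218, 285, 322 and 413 CPM against 211, 223, 184 and 180.

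All 14 resident-type macrophage genes tested had a positive difference, against 50.7% of all genes, with a median of 0.80 (0.48 without isotype tumour 3). In 13 of the 14 the higher-class tumour stood above both fellows in both groups, against 15.2% of all genes, and in 4 the classes do not overlap (Ccl8, Gas6, Stab1 and Fcna, beside 1.59% of all genes). None passed the edgeR test, 1 passed with Acta1 as a continuous term (1.38% of all genes) and 4 passed in DESeq2 (1.70% of all genes). The list score was 1.12 higher in isotype tumour 3 than in its fellows, and 0.58 higher in BTZ+anti-PDL1 tumour 1. Anti-PDL1 tumour 1, which had the second highest Acta1, did not stand high, with a score of -0.01 against 0.48 in anti-PDL1 tumour 2, which had the least Acta1 of the class. Macrophage and monocyte genes of the inflammatory kind had a median of 0.31 over 13 genes (0.03 without isotype tumour 3, 0.12 without isotype tumour 2, 0.52 without BTZ+anti-PDL1 tumour 1). Among them Adgre1 (F4/80, a general macrophage marker) was at 103, 112, 111, 99 and 122 CPM against 96.1, 85.8, 52.8 and 72.5, with no overlap (adjusted p = 0.317).

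**Figure D3:**
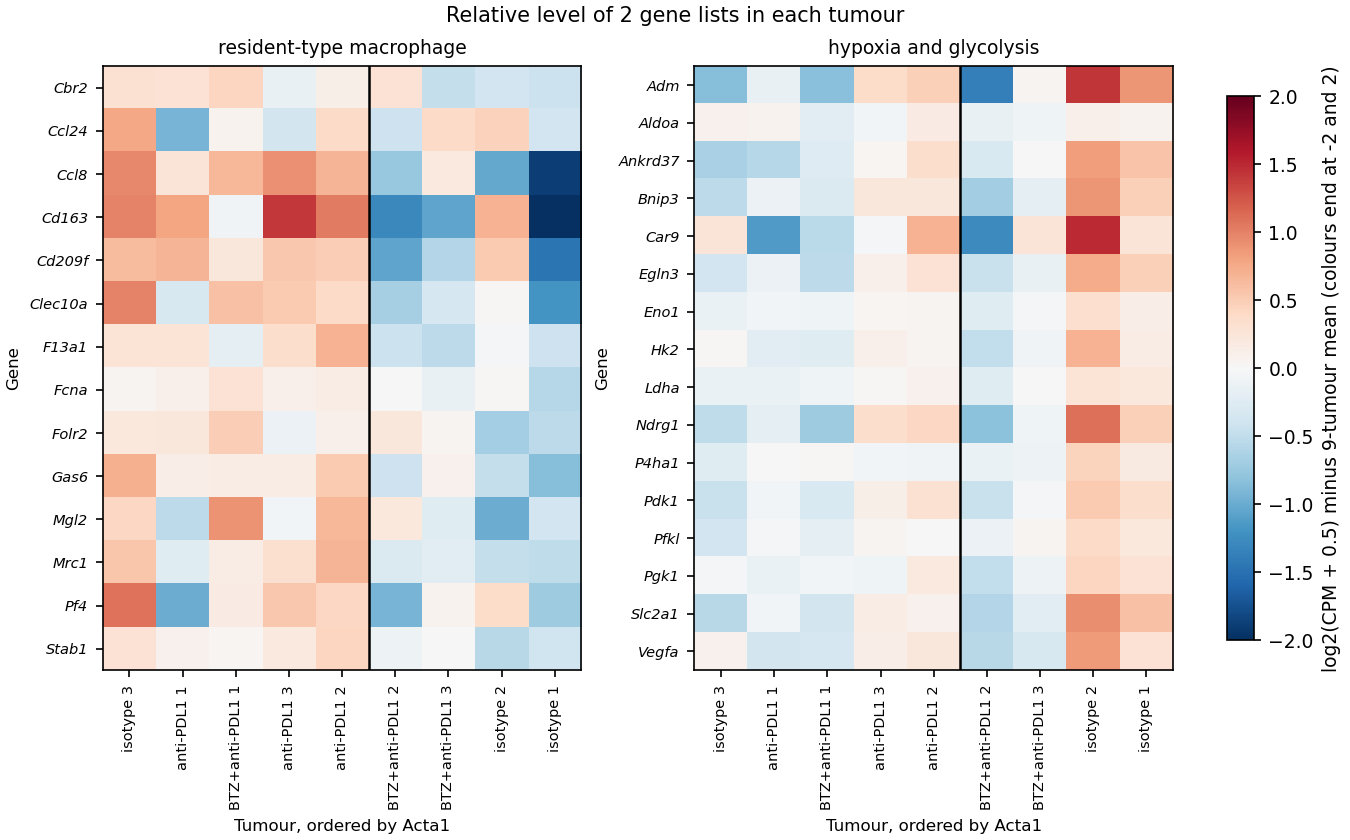
Level of each tested gene of the resident-type macrophage list (14 genes) and of the hypoxia and glycolysis list (16 genes) in the 9 tumours, as log2(CPM + 0.5) less the mean of the 9, with a line between the classes. Most macrophage genes are lower to the right of the line, whereas the hypoxia genes are high in isotype tumours 2 and 1 and not in the other 2 tumours of the lower class.

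Most lymphocyte genes had a positive difference. All 20 T cell genes tested had a positive difference (50.7% of all genes did). Their median was 0.75 (0.34 without isotype tumour 3 and 0.47 without isotype tumour 2). None separated the classes, near the 1.59% of all genes that did so in this direction. Within both groups 6 were higher (15.2% of all genes). Lck, a kinase of the T cell receptor, was at 7.47, 6, 11.4, 4.73 and 7.55 CPM against 5.88, 7.8, 2.57 and 5.05. Cd5, a T cell surface protein, was at 2.19, 1.2, 2, 1.5 and 1.42 CPM against 0.908, 1.56, 0.148 and 0.632. Isotype tumour 2 was the lowest of all 9 for both, and BTZ+anti-PDL1 tumour 3 lay among the higher class. B cell and plasma cell genes had a median of 1.15 over 8 genes (0.64 without isotype tumour 3). Igkc, the constant region of the kappa light chain, was at 5.22, 7.3, 4.11, 5.86 and 2.38 CPM against 1.55, 3.43, 1.04 and 0.737. Of 12 cytotoxic and NK cell genes tested, 10 were higher (50.7% of all genes were) and 2 lower. Prf1, the pore-forming protein of cytotoxic cells, was 1 of the 2 lower genes. Its classes do not overlap, as was so for 0.837% of all genes in that direction. It was at 3.19, 5.05, 5.61, 4.5 and 5.32 CPM against 6.3, 6.5, 6.56 and 5.9 (log2 difference -0.55 ± 0.21, SE, adjusted p = 0.441). The difference was -0.19 without isotype tumour 3 and -0.97 without BTZ+anti-PDL1 tumour 1.

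Genes of red blood cells followed other tumours. Hbb-bs, a beta-globin, was at 135, 24.6, 50.7, 18.9 and 12.5 CPM against 9.72, 10.9, 66.8 and 36.5, and the near-identical globin genes can share reads. Isotype tumours 1 and 2, of the lower class, stood above all 3 anti-PDL1 tumours. The 7 genes tested had a median of 1.3, which was -0.06 without BTZ+anti-PDL1 tumour 1 and 2.40 without isotype tumour 3. Endothelial genes had a median of 0.07 over 20 genes (-0.03 to 0.19 when single tumours were left out), smooth muscle and pericyte genes 0.10 over 16 (-0.10 to 0.27), and cell cycle genes 0.04 over 16 (-0.04 to 0.13). No gene of these lists separated the classes, near the shares over all genes (1.59% above and 0.837% below). Pecam1, of the endothelium, ran from 45.2 to 70.5 CPM in the higher class and from 39.7 to 75.5 in the lower. Mki67, of dividing cells, ran from 488 to 694 CPM and from 548 to 717.

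The remaining lists had medians between 0.15 and 0.46. They were 0.46 over 12 cytotoxic and NK cell genes (0.24 to 0.62 when single tumours were left out), 0.45 over 9 neutrophil genes (-0.12 to 0.97) and 0.28 over 18 interferon-stimulated genes (0.01 to 0.58). Over 3 lymphatic endothelial genes the median was 0.18 (-0.06 to 0.32), and over 13 mitochondrially encoded genes 0.15 (0.05 to 0.29). The lowest of each range came without isotype tumour 3 for the first 3 lists. Of 8 eosinophil symbols only Ear2 was tested, with a difference of 0.32 (-1.05 without isotype tumour 3).

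Hypoxia and glycolysis genes were lower in the higher class within the isotype group and about level within the BTZ+anti-PDL1 group. These genes are induced by low oxygen and include sugar transport and lactate production. All 16 had a negative difference, against 49.3% of all genes, with a median of -0.43, which was -0.03 without isotype tumour 3 and -0.72 without BTZ+anti-PDL1 tumour 1. The list score of isotype tumour 3 differed from that of its fellows by -0.81, and the difference in the BTZ+anti-PDL1 group was -0.02. Egln3, an oxygen-sensing hydroxylase that hypoxia induces, was at 171, 206, 156, 240 and 275 CPM against 165, 202, 373 and 313. Its log2 difference was -0.60 ± 0.20 (SE), with an adjusted p of 0.376 by edgeR, 0.0403 with Acta1 as a continuous term and up to 1.0 over the alternatives. The difference was -0.24 without isotype tumour 3 and -1.0 without BTZ+anti-PDL1 tumour 1. Pfkl, a phosphofructokinase, was at 206, 265, 237, 279 and 266 CPM against 248, 277, 349 and 309 (adjusted p = 0.305). Slc2a1, the glucose transporter GLUT1, was chosen after its values were seen and was at 242, 343, 274, 395 and 376 CPM against 236, 308, 679 and 533. Isotype tumours 1 and 2 were the 2 highest for all 3 genes.

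**Figure D4:**
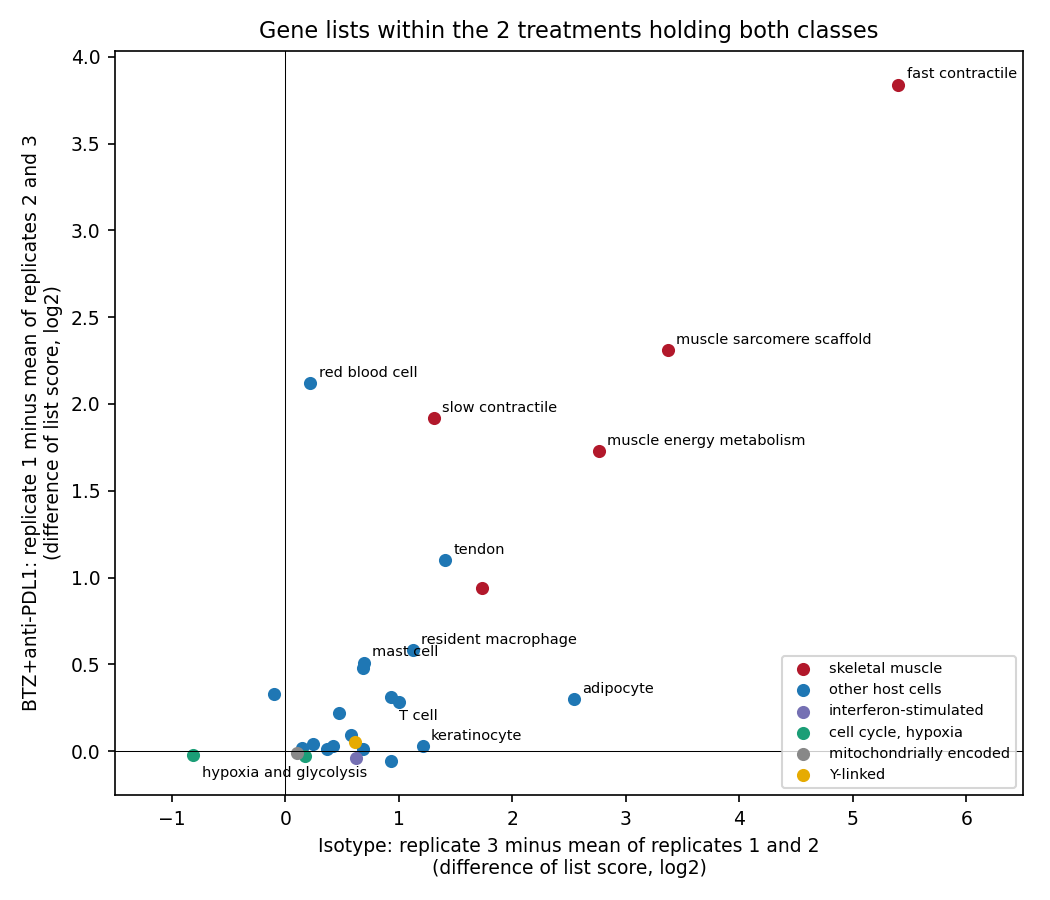
Each point is 1 gene list. The x axis gives the list score (log2) of isotype tumour 3 less the mean of isotype tumours 1 and 2, and the y axis that of BTZ+anti-PDL1 tumour 1 less the mean of BTZ+anti-PDL1 tumours 2 and 3. Fast contractile genes lie at 5.40 and 3.84, resident macrophage genes at 1.12 and 0.58 and adipocyte genes at 2.54 and 0.30, whereas hypoxia genes lie at -0.81 and -0.02.

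Y-linked genes measure RNA of male cells, and the hosts were male. The sex of the LLC line is not given in the sources used here. Ddx3y was at 16.6, 15.6, 14.6, 15.8 and 14.4 CPM against 12.7, 14.1, 12.5 and 12.2, with no overlap. Uty was at 4.28, 5.25, 3.86, 4.31 and 4.36 CPM against 3.74, 3.22, 3.45 and 3.26, again with no overlap, and the adjusted p was 0.491 and 0.709. Over all genes 1.59% separated in this direction, and 50.7% had a positive difference, as all 4 Y-linked genes did. Eif2s3y, at 14.5, 10.9, 11.8, 13.4 and 10.2 CPM against 10.8, 10.6, 8.09 and 8.79, and Kdm5d, at 7.78, 6.1, 6.31, 8.67 and 6.74 against 6.46, 7.96, 3.26 and 4.37, overlap. The median of the 4 genes was 0.36 (0.13 without isotype tumour 3 and 0.60 without BTZ+anti-PDL1 tumour 1), and the difference of Kdm5d became -0.20 without isotype tumour 3. Xist, the RNA that silences 1 X chromosome in female cells, was at 767, 641, 707, 787 and 697 CPM against 1020, 875, 764 and 993 (log2 difference -0.31 ± 0.13, SE, adjusted p = 0.493; -0.20 without BTZ+anti-PDL1 tumour 1). All 5 tumours of the higher class lay below 3 of the 4 others for Xist, and isotype tumour 2 lay within their range.

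Outside all lists, the genes with the smallest p in each direction are given next. Ppp1r3c, which targets a phosphatase to glycogen, was at 11.7, 2.5, 3.86, 0.796 and 0.709 CPM against 0.214, 0, 0.197 and 0.0526. Scn4b, a sodium channel subunit of excitable cells, was at 10, 2.75, 2.65, 0.703 and 0.355 CPM against 0.0534, 0, 0 and 0, which is 1 read in the whole lower class. Both passed the filter on low counts only through the higher class, so their p is not given. Atp1b2, a subunit of the sodium pump, was at 6.95, 3.7, 3.15, 2.76 and 2.48 CPM against 1.28, 0.988, 1.09 and 1.11 (adjusted p = 0.126). Mgp, a matrix protein that restrains calcification, was at 7.47, 5.9, 7.51, 4.4 and 4.36 CPM against 2.89, 2.81, 3.55 and 2.9 (adjusted p = 0.126). These 4 separate the classes with no overlap (1.59% of all genes did in this direction). They were chosen by their p in this same fit, so nothing is read from the separation. Within the higher class, the first 3 follow the order of Acta1 nearly throughout.

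Rnf220, Cdc14b and Hyal2 took 2 levels that did not follow the amount of muscle RNA. Rnf220, a ubiquitin ligase, was at 107 CPM in isotype tumour 3 and 111 in BTZ+anti-PDL1 tumour 1, and between 56.7 and 68.3 in the other 7 tumours (log2 difference 0.77 ± 0.08, SE, adjusted p = 0.0901). Cdc14b, a phosphatase, was at 20.3 and 22.1 CPM in the same 2 tumours and between 34.2 and 44.1 elsewhere. Hyal2, a hyaluronidase, was at 22 and 23.3 CPM there and between 39.1 and 53.3 elsewhere. Since the fit rests on these 2 tumours against their fellows, such a pattern gives a small p although anti-PDL1 tumour 1, with 352 CPM of Acta1, did not share it. Psmd5, a chaperone of proteasome assembly, did follow the classes, at 47.9, 50.2, 52.7, 46.5 and 54.5 CPM against 75.4, 71.4, 76.1 and 75.5, with means of 50.4 ± 3.29 (SD, n = 5) and 74.6 ± 2.15 (SD, n = 4). Its log2 difference was -0.57 ± 0.09 (SE), with an adjusted p of 0.126, and 4 of 20 alternatives put it under 0.05. Hk1, a hexokinase, was at 131, 153, 145, 177 and 156 CPM against 186, 213, 192 and 221 (adjusted p = 0.152). Gli2, a transcription factor of hedgehog signalling, was at 17.2, 31.3, 21.3, 29.5 and 25.5 CPM against 28.8, 37, 32.6 and 37.1 (adjusted p = 0.153). Cd14, a receptor of macrophages from the inflammatory list, had the smallest p of any macrophage gene, at 83.7, 51.2, 66.4, 49.6 and 43 CPM against 52.2, 44, 55.9 and 56 (log2 difference 0.52 ± 0.10, SE, adjusted p = 0.153). It too was highest in isotype tumour 3 and BTZ+anti-PDL1 tumour 1. Without a treatment term the difference was 0.34 for Rnf220 and 0.18 for Cd14.

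A direct test of whether the class difference itself differed between the isotype and BTZ+anti-PDL1 groups called 7 of 15340 genes (Mfap3, Zbtb9, Rbm12b2, Pou2f1, Fam134c, Rnf170 and Kdm2a, 0.0456%), with 845 at an unadjusted p under 0.05. None of the 7 is in a list used here, and they were named after their values were seen.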

How the data were processed

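Bulk RNA of 9 tumours was analysed. Gene counts were deposited as whole numbers, in columns whose headers say count. The deposited FPKM values, in columns whose headers say FPKM, were used for shares of myosin chains and for 2 alternatives. The build mm10, HISAT2 2.0.4 and StringTie 1.3.3b are named per the submitters' processing notes, without roles. The counting tool, annotation and strand setting are not given in the sources used here, so counts of overlapping, antisense and near-identical genes are uncertain. Replicates are tumours of separate mice, as the labels' protocols describe.

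Of 34745 genes, 14806 passed the edgeR function filterByExpr at a minimum count of 10. Testing used edgeR 4.0.16 under R 4.3.3 (TMM scaling, robust quasi-likelihood F test, treatment and Acta1 class as terms, 5 residual degrees of freedom), with a Benjamini-Hochberg adjusted p under 0.05 as the call. The procedure was tested on simulated data. The median standard error (SE) of a log2 difference was 0.144. Alternatives used RLE scaling, DESeq2 1.42.0, limma 3.58.1 on log2(FPKM + 1) or log2(FPKM + 0.1), other filters, terms and thresholds, and fewer tumours.

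The classes, the 28 lists (470 symbols) and the tests were chosen with earlier results of these data known. Named genes follow a rule: 4 muscle genes of highest level per muscle list, the 4 smallest p per other list, the 5 smallest p in each direction outside the muscle lists at a mean of at least 1 CPM, Xist and Y-linked genes. Named after their values were seen were Car3, Cfd, Mrc1, Slc2a1, Krt5, Kit, Stab1, Fcna, Tnmd, Mkx, Col1a1, Pecam1, Mki67, Ear2, Gys1, Myl2, Myl3, Csrp3, Pax7, Myf5, Chrng, Myod1 and Myog. Muscle genes were part of every fit and of the counts over all genes, but no test of them is given, since Acta1 set the classes. A gene that the rule names is not reported here.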

Additional observations from a re-analysis of the deposited data

Results flagged for a closer look

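Within a class, 9 of 176 sets of values held 1 tumour far from the others by Dixon's criterion at the 95% level, which chance gives in about 1 in 20 sets. In the higher class these were isotype tumour 3 for the keratinocyte list score (1.06) and for Krt14 (5.38 CPM), and BTZ+anti-PDL1 tumour 1 for the interferon-stimulated list score (0.55). In the lower class isotype tumour 2 stood apart for the lymphatic endothelial list score (0.45) and for Mgp (3.55 CPM), and isotype tumour 1 for Col3a1 (7350 CPM), a fibrillar collagen gene. Also in the lower class, BTZ+anti-PDL1 tumour 3 stood apart for Thrsp (0.416 CPM) and Psmd5 (71.4 CPM), and BTZ+anti-PDL1 tumour 2 for Scn4b (0.0534 CPM, which is 1 read).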

How the results depend on the processing

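With 1 higher-class tumour in each of the 2 groups that hold both classes, single tumours weigh heavily. The count of called genes was 0 in the main analysis, with RLE scaling, with library sizes without muscle genes, with limma on log2(FPKM + 1) or log2(FPKM + 0.1), and with the replicate block. It was 252 with DESeq2, 5 without a low-count filter, 1 without a treatment term, 64 with only isotype and BTZ+anti-PDL1 tumours, 205 with a continuous Acta1 term, 51 with an Acta1 threshold of 100, and 0 to 94 when single tumours were left out. A threshold of 5 left the classes as they were and was not run. Same-numbered tumours showed no common direction of deviation (correlations from -0.374 to 0.343), and the numbers were not used as pairs in the main analysis. Whether same-numbered tumours shared a batch was not tested.

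Of 1157 gene values under alternatives, 1092 kept direction and call, 60 passed the threshold and 5 turned sign: without isotype replicate 3 Dgat2 (-0.01), Cfd (-0.81), Pdgfrb (-0.09) and Kdm5d (-0.20), whose highest values with a tumour left out were 1.81, 7.95, 0.89 and 1.03, and without a treatment term Col3a1 (0.03). Of 458 list medians, 65 moved by more than 1 SD of the list score within classes and treatments, and 17 in 10 lists turned sign. The cause was not tested. At an Acta1 threshold of 100 the medians were 0.30 (tendon), 0.46 (mast cell), 0.19 (inflammatory macrophage), 0.23 (cytotoxic), 0.85 (B cell) and 0.23 (Y-linked). Without a treatment term they were 0.90 (adipocyte), 0.43 (tendon), 0.05 (keratinocyte), 0.15 (inflammatory macrophage), 0.18 (cytotoxic), 0.04 (red blood cell) and -0.19 (interferon-stimulated). On log2(FPKM + 1) they were 0.52 (adipocyte), 0.28 (nerve), 1.32 (tendon), 0.00 (keratinocyte), 0.72 (mast cell) and 0.25 (Y-linked), and on log2(FPKM + 0.1) 0.89 (adipocyte), 0.39 (nerve), 2.41 (tendon) and 0.01 (keratinocyte). Single moves were 3.88 for adipocyte with DESeq2, 0.66 for tendon with a continuous Acta1 term, 1.31 for tendon with the replicate block, 0.01 for keratinocyte in the 6 tumours, and 1.90 for keratinocyte and 0.84 for B cell without a filter.

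Leaving out single tumours gave medians from 0.12 to 6.01 (adipocyte), -0.05 to 0.31 (nerve), 0.88 to 2.72 (tendon), 0.01 to 3.43 (keratinocyte), 0.66 to 1.05 (mast cell), -1.05 to 0.63 (eosinophil), 0.48 to 1.10 (resident macrophage), 0.03 to 0.52 (inflammatory macrophage), -0.12 to 0.97 (neutrophil), 0.34 to 1.10 (T cell), 0.24 to 0.62 (cytotoxic), 0.64 to 1.68 (B cell), -0.06 to 2.40 (red blood cell), -0.72 to -0.03 (hypoxia), 0.05 to 0.29 (mitochondrially encoded) and 0.13 to 0.60 (Y-linked). Genes at a few reads, such as Scn4b, Fmod and Krt10, are limited by depth.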
